A study of Mus musculus with 16 samples.

Results

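H3K4me3, the trimethylation of lysine 4 of histone H3, was compared between mouse embryonic stem cells (ESCs) kept in leukemia inhibitory factor (LIF-ESCs) and ESCs kept by an active Myc fusion protein without LIF (Myc-ESCs). The deposited data held 1 list of enriched regions (peaks) per culture and antibody, with 2 libraries named behind each list. All peaks of both H3K4me3 lists entered the comparison, 32469 peaks from LIF-ESCs and 30345 from Myc-ESCs, which are 62814 of the 107863 peaks in the 6 lists of the series. Peaks of both lists that shared at least 1 bp were joined, which gave 36255 regions on the mouse genome build GRCm38. Each region was then classed by how many peaks each culture had in it and by how long those peaks were.

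The cells of both cultures are R1 mouse ESCs, grown on gelatin without feeder cells in medium with serum and vitamin C, and all of them carry MycER, a Myc protein fused to a modified estrogen receptor that 4-hydroxytamoxifen (OHT) switches on. LIF-ESCs received 100 units/ml LIF and no OHT. Myc-ESCs received 50 nM OHT and no LIF, so that the LIF signal and the activity of the transgene changed together and their parts cannot be told apart. Both cultures come from a clonal MycER line, which limits what can be said of ESCs in general. Checked against marker genes, all 10 ESC markers (among them Pou5f1, Sox2, Nanog and Esrrb) had H3K4me3 at a start site in both cultures. Of 6 fibroblast markers, the LIF-ESC list marked 4 and the Myc-ESC list 5. Near the start sites of 5 of them lay a peak of the Polycomb protein Suz12. Each list also marked 5 of 5 markers of the primed epiblast, 5 of 5 of primitive endoderm and 4 of 5 of trophoblast. The check therefore does not tell ESCs from these lineages. H3K4me3 at a start site does not by itself say that the gene is expressed.

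H3K4me3 is written mainly by the Set1 and MLL enzyme complexes and covers the start sites of most active genes, above all those in CpG islands. In ESCs it also lies, together with the Polycomb mark H3K27me3, on silent developmental genes, which are called bivalent. Peaks of unusual breadth that run into the transcribed part of a gene are known from genes that define a cell's identity. The score that the peak caller gave to a peak is used here only as a rank within its own list, where 100 is the highest percent rank. Scores pile up at a ceiling, so that 4006 LIF-ESC peaks share the rank 93.1 and 3185 Myc-ESC peaks share the rank 94.1. With 1 list per culture no difference could be set against the error between replicates, so no p-value is given, and the 95% Wilson intervals of shares cover counting error only.

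The sequences printed here differed in their CpG content, but they were taken from unlike places. Promoters stand beside windows from the middle of lost stretches or of peaks found in 1 culture only. For Fgf5 and Wnt2 the stretches that only the Myc-ESC peak covered are not printed. The CpG counts of these windows therefore do not compare lost with gained sequence. The windows of 300 bp below stand for a start site, for a stretch of the same gene that only the LIF-ESC peak covered, for peaks found in 1 culture only and for start sites where the Myc-ESC peak was the longer one, with each CpG in capitals. The promoters are those of RefSeq for GRCm38 and run from 250 bases before to 50 bases after the start, on the strand of the gene, and the other windows are the forward strand of GRCm38.
Tfcp2l1 promoter, chr1:118627695-118627994, forward strand: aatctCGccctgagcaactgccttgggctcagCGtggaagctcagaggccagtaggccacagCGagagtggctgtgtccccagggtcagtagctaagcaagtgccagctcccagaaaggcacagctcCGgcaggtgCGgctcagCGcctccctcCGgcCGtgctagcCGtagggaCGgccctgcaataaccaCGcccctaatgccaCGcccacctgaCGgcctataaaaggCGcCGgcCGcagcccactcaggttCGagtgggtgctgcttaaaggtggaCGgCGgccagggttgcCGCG
Tfcp2l1 stretch covered in LIF-ESCs only, chr1:118631000-118631299, forward strand: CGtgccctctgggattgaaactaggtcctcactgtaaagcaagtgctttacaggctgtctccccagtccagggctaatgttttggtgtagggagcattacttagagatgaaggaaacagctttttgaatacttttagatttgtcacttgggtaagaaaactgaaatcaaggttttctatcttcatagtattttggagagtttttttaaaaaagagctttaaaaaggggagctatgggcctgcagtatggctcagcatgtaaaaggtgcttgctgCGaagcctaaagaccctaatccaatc
Jade1 stretch covered in LIF-ESCs only, chr3:41579189-41579488, forward strand: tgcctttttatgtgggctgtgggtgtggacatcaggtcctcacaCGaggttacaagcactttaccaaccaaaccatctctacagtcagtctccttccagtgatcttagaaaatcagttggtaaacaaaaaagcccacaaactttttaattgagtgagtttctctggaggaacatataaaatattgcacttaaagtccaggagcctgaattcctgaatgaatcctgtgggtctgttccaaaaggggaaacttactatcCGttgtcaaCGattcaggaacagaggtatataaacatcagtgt
Peak inside Kat6b found in LIF-ESCs only, chr14:21523010-21523309, forward strand: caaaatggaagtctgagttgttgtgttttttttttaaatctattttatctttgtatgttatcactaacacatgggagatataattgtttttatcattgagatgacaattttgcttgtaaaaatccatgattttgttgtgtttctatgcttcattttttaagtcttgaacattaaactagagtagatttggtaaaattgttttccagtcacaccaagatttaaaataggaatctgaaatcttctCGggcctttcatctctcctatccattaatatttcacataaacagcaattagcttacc
Peak at Vrtn found in Myc-ESCs only, chr12:84641702-84642001, forward strand: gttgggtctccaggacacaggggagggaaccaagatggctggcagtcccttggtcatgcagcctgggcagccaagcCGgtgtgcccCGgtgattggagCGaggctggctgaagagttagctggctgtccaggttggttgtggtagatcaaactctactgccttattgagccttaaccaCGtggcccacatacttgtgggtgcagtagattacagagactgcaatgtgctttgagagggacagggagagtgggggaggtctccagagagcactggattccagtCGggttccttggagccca
Fgf5 promoter, chr5:98253934-98254233, forward strand: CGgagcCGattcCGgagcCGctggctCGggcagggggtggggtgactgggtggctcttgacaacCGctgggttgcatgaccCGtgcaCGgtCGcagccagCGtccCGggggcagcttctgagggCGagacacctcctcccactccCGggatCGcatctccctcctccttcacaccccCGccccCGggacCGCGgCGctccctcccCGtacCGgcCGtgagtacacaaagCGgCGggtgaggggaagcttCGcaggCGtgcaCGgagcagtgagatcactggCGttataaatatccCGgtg
Wnt2 promoter, chr6:18030396-18030695, reverse strand: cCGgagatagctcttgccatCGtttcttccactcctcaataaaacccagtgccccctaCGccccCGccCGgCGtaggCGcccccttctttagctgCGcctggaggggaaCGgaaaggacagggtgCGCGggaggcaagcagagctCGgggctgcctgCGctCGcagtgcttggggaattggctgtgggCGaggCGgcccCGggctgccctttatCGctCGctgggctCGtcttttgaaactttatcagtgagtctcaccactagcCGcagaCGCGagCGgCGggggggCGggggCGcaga
The promoters of Tfcp2l1, Fgf5 and Wnt2 held 21, 29 and 27 CpG. The stretches of Tfcp2l1 and Jade1 that were covered in LIF-ESCs only held 2 and 3, the Kat6b window 1 and the Vrtn window 5. The CpG content of whole classes of regions is given with the edges of the peaks.

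Most regions were found in both cultures. Of the 36255 regions, 24999 held 1 peak of each list, and these are called one-to-one. In 223 regions 1 LIF-ESC peak stood against several Myc-ESC peaks (split in Myc-ESCs), in 454 several LIF-ESC peaks stood against 1 Myc-ESC peak (merged in Myc-ESCs), and 54 held several of each. Regions found in LIF-ESCs only numbered 6213 (17.1%) and regions found in Myc-ESCs only 4312 (11.9%). The order of these counts rests on the length of the lists: with the longer list cut to the length of the shorter there were 4999 LIF-only and 5170 Myc-only regions. The share of peaks found in both followed their rank. When each list was cut into 5 equal groups by rank, 50.3% of the LIF-ESC peaks (interval 49.1 to 51.5%) in the lowest group met a Myc-ESC peak, and in the highest group 6492 of 6494 did. Of the Myc-ESC peaks 49.6% (48.4 to 50.9%) in the lowest group were shared and 99.9% in the highest. A peak found in 1 culture only was mostly a low peak, with a median rank of 19.0 for LIF-only and 12.4 for Myc-only regions. Above rank 50, however, there were 547 LIF-only regions and 49 Myc-only regions.

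LIF-only and Myc-only regions lay in different places. Within 2500 bp of a start site lay 9.00% of the LIF-only regions (8.31 to 9.73%) and 16.3% of the Myc-only regions (15.2 to 17.4%). LIF-only regions lay mostly inside genes away from the start site, 59.0% of them (57.8 to 60.2%) against 35.5% of the Myc-only regions (34.0 to 36.9%). Intergenic were 32.0% of the LIF-only and 48.3% of the Myc-only regions. One-to-one regions were at start sites in 54.1%, split regions in 75.8% and merged regions in 77.3%. The contrast was larger above rank 50, where 369 of the 547 LIF-only regions lay in gene bodies and 25 of the 49 Myc-only regions lay at start sites. Of LIF-only regions 134 were longer than 5 kb, the longest 29758 bp, and of Myc-only regions 9 were, the longest 8083 bp.

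**Figure D1:**
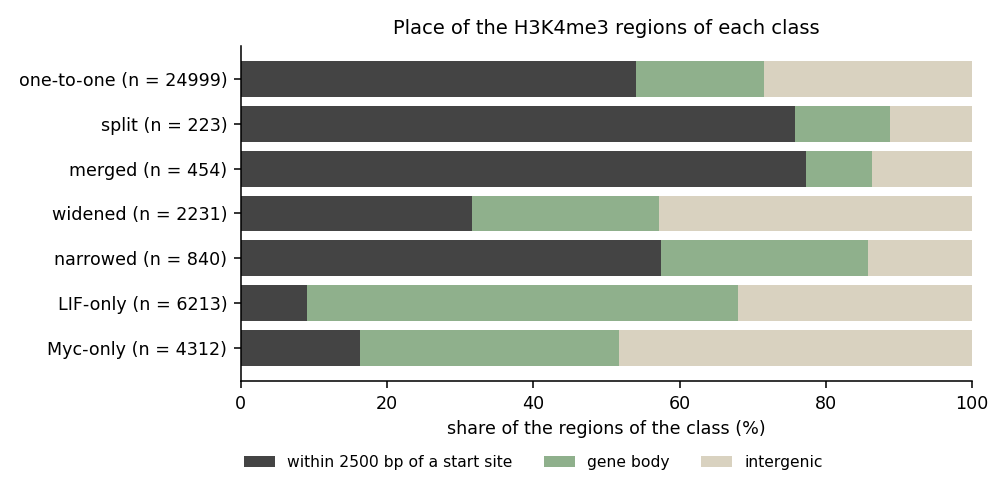
Bars give the share of regions (%, x axis) of each class (y axis, with the number of regions) that lay within 2500 bp of a start site, in a gene body or between genes. LIF-only regions lie mostly in gene bodies (59.0%), split and merged regions mostly at start sites (75.8% and 77.3%).

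The LIF-only regions in gene bodies clustered toward the start of genes that carried H3K4me3 in both cultures. There were 3665 such regions in 2222 genes, and for 94.0% of the regions (93.2 to 94.7%) the host gene's start site was marked in both cultures. For the 1529 Myc-only regions in gene bodies that share was 78.5% (76.4 to 80.5%), and for the 4382 one-to-one regions it was 81.4%. The median distance from the host gene's start was 20.7 kb for LIF-only and 35.9 kb for Myc-only regions, and one-to-one regions lay at 35.4 kb. In the third of the host gene nearest to its start lay 44.1% of the LIF-only regions (42.5 to 45.7%), 23.6% of the Myc-only regions (21.5 to 25.8%) and 26.3% of the one-to-one regions. A Myc-ESC peak lay within 5 kb of 35.0% of the LIF-only regions, and a LIF-ESC peak lay within 5 kb of 21.6% of the Myc-only regions. Genes with 5 or more LIF-only regions numbered 87, and 1 gene, Fto, had 5 Myc-only regions.

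**Figure D2:**
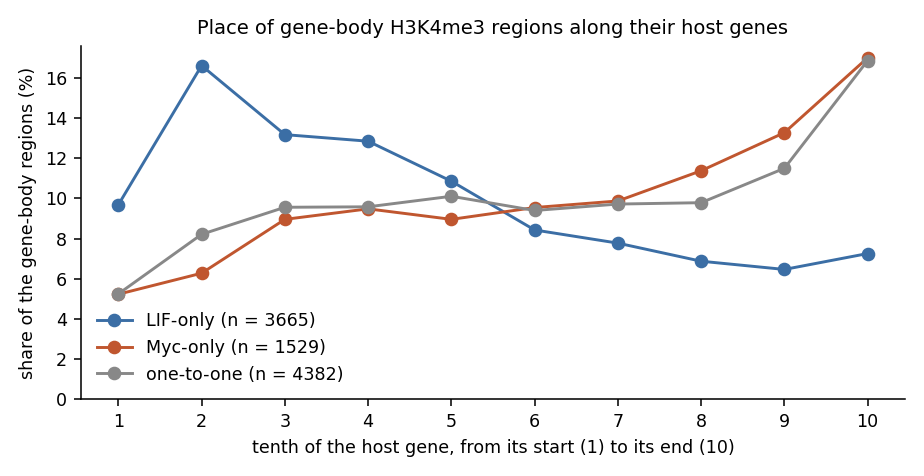
The share of gene-body regions (%, y axis) is drawn for 10 equal parts of the host gene from its start to its end (x axis) for LIF-only, Myc-only and one-to-one regions. LIF-only regions are most frequent in part 2, with 16.6% of 3665 regions, and Myc-only regions in part 10, with 17.0% of 1529.

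Kat6b, which encodes a histone H3 acetyltransferase of the MYST family, held the most LIF-only regions, 16, over 163.9 kb of its 172.7 kb on the forward strand of chromosome 14. They were between 1248 and 15759 bp long and ranked between 0.59 and 75.6. No Myc-only region lay in Kat6b, and its start-site region was split in Myc-ESCs. Pitpnc1 held 13, Msi2, which encodes an RNA-binding protein, 13, the noncoding Myc neighbour Pvt1 12 and Zfp423 11. Among these genes Pitpnc1 and Zfp423 held 1 Myc-only region each and Msi2 and Pvt1 none. Over the 3254 genes with a culture-only region inside, 2029 held more LIF-only and 1061 more Myc-only regions. The highest-ranking LIF-only regions were at Pisd-ps1 (7237 bp, rank 82.1), within Ston2 (4577 bp, rank 80.7) and within Mras (13864 bp, rank 78.9), which encodes a Ras-like GTPase. The highest-ranking Myc-only regions were one of 8083 bp at a start site of Sall2, a zinc finger gene that other peaks marked in both cultures, and one of 8040 bp that lay 193.2 kb from the nearest start site, that of Ttc29, both at the tied rank of 94.1. A Myc-only region of 6783 bp (rank 64.4) lay 4.53 kb from the nearest start site of Dnmt3b, whose own peak is described below.

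Genes marked in 1 culture only were few. A gene was called marked where a peak came within 2500 bp of one of its start sites. Of 26180 genes, 15958 were marked in both cultures and 9291 in neither, 614 (2.35%) in Myc-ESCs alone and 317 (1.21%) in LIF-ESCs alone. The counts depend on the annotation, and with the larger GENCODE set they were 1173 and 941. Protein-coding were 491 of the 614 and 179 of the 317. The marks were mostly weak, with a median rank of 20.3 in the Myc-only and 22.2 in the LIF-only genes, against 78.7 in Myc-ESCs for genes marked in both. A Suz12 peak of either culture lay within 1000 bp in 31.9% of the Myc-only genes and in 8.83% of the LIF-only genes, and in 23.9% of the genes marked in both. For 44 of the 614 and 27 of the 317 the mark came from a region found in both cultures whose edge reached the gene in 1 culture alone, and these are called edge cases.

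Vrtn, a gene with a known role in the number of vertebrae, had the highest-ranking Myc-only mark with a region of its own, 5457 bp at chr12:84639124-84644580 (rank 84.0) from upstream of its start into intron 1, and no LIF-ESC peak. Slc23a1, which encodes a vitamin C transporter, had a Myc-only peak of 3717 bp at rank 83.6, and Trim12c one of 2657 bp at rank 60.7. Both cultures grew with vitamin C. Tex38, Il12rb1, Hoxa6, Gimap1, Clic3, Ppip5k1 and Ubash3a completed the 10 highest and were all edge cases, with a peak in both cultures that reached their start site window in Myc-ESCs alone. Hoxa6 shows the type, with a peak of 2795 bp in LIF-ESCs against 4953 bp in Myc-ESCs. Among LIF-only genes, Emp1, which encodes a membrane protein of epithelia, ranked highest of those with a region of their own (4072 bp, rank 75.7). Fbxw10 followed with 4024 bp (rank 73.3), AU018091 with 2261 bp (rank 67.8) and Lpar5, a receptor for lysophosphatidic acid, with 3164 bp (rank 66.8). Akap3, Fam166a, Hepacam2, Ifitm5, Nanos3 and Slc25a2 were edge cases.

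The one-to-one regions were a little longer in Myc-ESCs, and away from start sites more so. The median log2 ratio of Myc-ESC to LIF-ESC peak length was 0.13 over all 24999 one-to-one regions, 0.07 at start sites and 0.24 elsewhere. Peaks were called widened where the Myc-ESC peak was at least 1.5 times as long as the LIF-ESC peak and narrowed where the LIF-ESC peak was at least 1.5 times as long as the Myc-ESC peak. By this rule 2231 regions (8.92%) were widened and 840 (3.36%) narrowed. This order rests on the overall difference in length, since ratios divided by the median ratio gave 1158 widened and 1212 narrowed regions. Widened and narrowed regions were unlike in size and rank. The median widened region measured 1465 bp in LIF-ESCs against 2477 bp in Myc-ESCs, and its median rank was 23.1 in LIF-ESCs and 37.4 in Myc-ESCs. The median narrowed region measured 6067 bp in LIF-ESCs against 3198 bp in Myc-ESCs, with median ranks of 77.4 and 62.7. Long peaks were fewer in Myc-ESCs, with 129 peaks of more than 10 kb against 395 in LIF-ESCs, although the median peak was longer. Because a region that is long in 1 list tends to be narrowed in the other, one-to-one regions on start sites were also sorted by the mean of both lengths. Of 5 equal groups, the one with the longest means still held 349 narrowed and 32 widened regions, and the one with the shortest means held 16 narrowed and 382 widened regions.

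Suz12, a core subunit of the Polycomb complex that writes H3K27me3, marked the widened more often than the narrowed regions. A Suz12 peak of either culture lay within 1000 bp of 26.1% of the widened regions (24.3 to 27.9%), 37.9% of the merged, 17.2% of those that kept their length, 13.5% of the split and 6.43% of the narrowed regions (4.96 to 8.29%). It lay at 11.0% of the Myc-only and 2.16% of the LIF-only regions. For H3K27me3 the shares were 17.5% of the widened and 3.10% of the narrowed regions. Over all regions Suz12 lay at 14.4% and H3K27me3 at 10.2%. Peaks of the LIF-ESC Suz12 list, shared with Myc-ESCs or not, lay at 23.6% of the widened, 5.38% of the split and 1.43% of the narrowed regions. Peaks of the Myc-ESC Suz12 list, shared or not, lay at 22.4%, 13.0% and 6.31% of them. Over all regions these 2 lists gave 11.0% and 12.9%. H3K27me3 peaks of LIF-ESCs lay at 0.48% and those of Myc-ESCs at 2.98% of the narrowed regions, against 3.58% and 9.47% of all. Among one-to-one regions that covered a start site, 11.2% of the 3198 with Suz12 were widened (10.1 to 12.3%) and 2.80% of the 9678 without (2.49 to 3.15%), while 1.28% and 4.42% were narrowed. Regions with Suz12 were shorter in LIF-ESCs, with a median of 2660 bp on start sites against 3438 bp for those without, so the groups by mean length were compared as well. In the group of the longest means the median log2 ratio was 0.05 with and -0.11 without Suz12, and in the group of the shortest means it was 0.32 with and 0.22 without.

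Long start-site peaks were narrowed mostly at the downstream edge. The edges were followed in 10787 one-to-one regions that held start sites of a single gene on 1 strand (10497 genes). In the median region the upstream edge lay 117 bp farther out in Myc-ESCs and the downstream edge 75 bp farther out. The downstream edge was drawn in by 1000 bp or more in 735 regions (6.81%) and moved out by as much in 222 (2.06%). The upstream edge was drawn in by as much in 101 regions and moved out in 110. In the 400 narrowed regions of this set the median move was -92.5 bp upstream and -3012 bp downstream, and in 360 of them the downstream edge was drawn in by 1000 bp or more. Among the 1351 regions whose LIF-ESC peak was longer than 5 kb the downstream edge was drawn in by 1000 bp or more in 45.7% (43.1 to 48.4%), with a median move of -837 bp, while the median upstream edge moved by 4 bp. LIF-ESC peaks reached more than 5 kb past the start site in 542 regions and Myc-ESC peaks in 244, and more than 10 kb in 94 and 22. Upstream of the start site LIF-ESC peaks reached more than 5 kb in 36 regions and Myc-ESC peaks in 25, so the upstream side had less length that could be lost. When regions were sorted by the reach of the Myc-ESC peak instead, 83 of the 222 with a reach of 5 to 10 kb still had the downstream edge drawn in by 1000 bp or more and 21 had it moved out. With Suz12 the downstream edge was drawn in by 1000 bp or more in 61 of 2862 regions and moved out in 123, and without Suz12 in 674 of 7925 and 99.

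**Figure D3:**
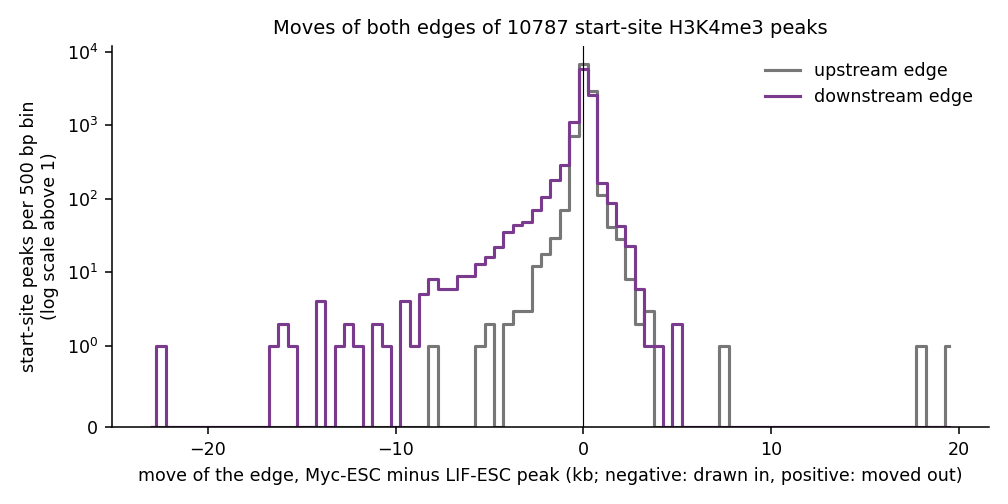
The number of start-site peaks (y axis, log scale above 1) is drawn against the move of the upstream and of the downstream edge from LIF-ESCs to Myc-ESCs (x axis, kb, bins of 500 bp) for 10787 regions. The downstream edge has a long tail of inward moves down to -22333 bp, and its outward moves end at 5002 bp. Inward moves of the upstream edge end at -8193 bp, and its largest outward move is 19411 bp.

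The stretches that Myc-ESC peaks no longer covered were poor in CpG. The 735 stretches lost at the downstream edge had a median length of 1945 bp. In 300 bp at the middle of each stretch the median GC content was 45.0% and the median ratio of observed to expected CpG 0.21. At the start sites of the same genes, in windows of 300 bp, these were 67.3% and 0.88. The middles of the 222 stretches gained at the downstream edge had 50.8% GC and a CpG ratio of 0.34, against 64.3% and 0.76 at their start sites. Downstream sequence that both cultures covered was not measured, so lost stretches were not compared with kept sequence at a like distance. Over 1000 bp at the center of each region, the median CpG ratio was 0.54 in one-to-one, 0.48 in widened, 0.39 in Myc-only, 0.28 in LIF-only, 0.24 in split and 0.24 in narrowed regions, and 0.47 over all regions. The center of a long region can lie far from its start site. Repeats filled more of the sequence in Myc-only (mean 34.2%) and widened regions (40.7%) than in LIF-only regions (24.3%), against 28.4% over all regions.

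Jade1, which encodes a subunit of the HBO1 histone acetyltransferase complex, had the longest retraction. Its LIF-ESC peak ran for 36260 bp (chr3:41554246-41590505) from upstream of the start into intron 3, and its Myc-ESC peak for 13968 bp (chr3:41554205-41568172) with an end in intron 1, with a downstream move of -22333 bp and an upstream move of 41 bp. Rbpj, the DNA-binding effector of Notch signaling, had a peak of 23659 bp in LIF-ESCs against 6087 bp in Myc-ESCs and a downstream move of -16324 bp. N4bp1 (-15986 bp), Ptp4a2 (-15961 bp), Zfp532 (-15722 bp), Zfp292 (-14177 bp), Rad23b (-14071 bp), B3gnt2 (-13959 bp) and Dcp2 (-13794 bp) followed. Kdm5b, which encodes a demethylase of H3K4me3 itself, came next with a peak of 28678 bp in LIF-ESCs that ended in exon 3 and one of 15878 bp in Myc-ESCs that ended in intron 1. Here and in what follows, a pair of lengths gives the LIF-ESC peak first and the Myc-ESC peak after it. By ratio of lengths the mRNA-decapping gene Dcp2 was first, with 17807 bp in LIF-ESCs against 3150 bp in Myc-ESCs. Rtn4 (15505 and 3537 bp), the amino acid transaminase gene Bcat1 (14846 and 3662 bp), Jam2 (17950 and 4861 bp) and the citrate synthase gene Cs (12682 and 3641 bp) were also among the 10 smallest ratios. Of the 10 largest retractions only B3gnt2 had a Suz12 peak nearby.

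The largest outward moves of the downstream edge were smaller than the largest inward ones. Dbx1, a homeobox gene of the neural tube, had the largest outward move of the downstream edge, 5002 bp, and the largest ratio, with 1772 bp in LIF-ESCs against 7302 bp in Myc-ESCs. Naf1 (4757 bp), the carbonic anhydrase gene Car2 (3805 bp), the sialomucin gene Podxl (3451 bp), Zfhx3 (2990 bp), Sema6a (2975 bp), Fgf5 (2880 bp), Sdk1 (2860 bp) and Fxyd7 (2845 bp) were among the 10 largest moves. Of the genes named here, all but Naf1 and Car2 had a Suz12 peak nearby. Sulf1, which encodes a sulfatase of heparan sulfate, had 1407 bp in LIF-ESCs against 4760 bp in Myc-ESCs, and Wt1, a transcription factor of the kidney and gonad, 2682 and 7446 bp. The neurotrophin gene Ntf3 had 2334 and 6353 bp and differed by its upstream edge, which lay 3621 bp farther out.

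Split and merged regions differed by a gap that the list of 1 culture had and the other lacked. The split regions with the highest rank were those of Atp8b2 (6641 bp in LIF-ESCs against peaks of 2284 and 3448 bp in Myc-ESCs), Ywhae, Ube2v1, Gpbp1 and Gsta4. At Ywhae, which encodes a 14-3-3 protein, 25486 bp in LIF-ESCs stood against 7729, 2747 and 2144 bp in Myc-ESCs. Gpbp1 had 21984 bp in LIF-ESCs and peaks of 7747 and 2568 bp in Myc-ESCs. The merged regions with the highest rank were those of Bpnt1 (LIF-ESC peaks of 6968 and 2408 bp, Myc-ESC peak of 9416 bp), Mxi1, Tbl1xr1, Spin1 and Rbpms. At Mxi1, whose product opposes Myc at their common partner Max, LIF-ESC peaks of 2591 and 3446 bp stood against a Myc-ESC peak of 6612 bp. When peaks of a list less than 1000 bp apart were joined first, 218 merged regions were left of the 454.

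Genes of naive pluripotency had shorter peaks in Myc-ESCs. All genes with a start-site region in both cultures, 15976, served as background, and of these 4.88% had a narrowed or split region and 7.24% a widened or merged one, with a median log2 ratio of total H3K4me3 length of 0.06. The list of 25 naive genes also holds general pluripotency genes such as Pou5f1 and Sox2. Of the 25, 11 had a narrowed or split region and 0 a widened or merged one. Their median log2 ratio was -0.35, and 21 were shorter in Myc-ESCs. Nanog, the homeobox factor of the naive state, had a LIF-ESC peak of 15121 bp (chr6:122701411-122716531) across the whole gene and Myc-ESC peaks of 3876 bp around the start and 2740 bp upstream. The Krüppel-like factor gene Klf4 had 10182 bp in LIF-ESCs, which ended beyond the gene, and 5415 bp in Myc-ESCs, which ended in intron 4. Klf5 had 18927 bp against 5037 and 1990 bp, and Klf2 had 6042 against 3891 bp. Tfcp2l1, a factor that acts below LIF and Stat3, had 5593 bp in LIF-ESCs to intron 2 and 2203 bp in Myc-ESCs to intron 1. This difference covers the CpG-poor window printed above, while the promoter printed above was covered in both. Tbx3 had 11613 against 5954 bp and the zinc finger gene Sall4 16743 against 8833 bp.

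The 5-methylcytosine dioxygenase genes were both split, Tet1 with 18089 bp against 7230 and 4655 bp and Tet2 with 16374 bp against 4676 and 2894 bp. Nr5a2 and Zfp42 were split and kept most of their length (log2 ratios of -0.12 and -0.26). Pou5f1 and Sox2, which with Nanog form the core of the pluripotency network, kept their length by the ratio used. Pou5f1 had 9800 bp in LIF-ESCs against 8565 bp in Myc-ESCs, and Sox2 had 10790 and 12641 bp. Esrrb had 3959 and 3102 bp, and Utf1 10784 and 10053 bp. Dppa3, Dppa4, Lin28a and Sox2 were the 4 naive genes with the longer peak in Myc-ESCs.

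Genes of the primed epiblast, the state that follows the naive state at implantation, had longer peaks in Myc-ESCs. Of 18 genes 17 were marked in both cultures and Cer1 in neither. Of the 17, 12 had a widened or merged region and 0 a narrowed or split one, with a median log2 ratio of 0.59. Fgf5, the usual marker of the primed state, had 2173 bp (chr5:98253093-98255265) at rank 42.2 in LIF-ESCs and 6230 bp (chr5:98251916-98258145) at the tied rank of 94.1 in Myc-ESCs, with the upstream edge 1177 bp and the downstream edge 2880 bp farther out, on either side of the CpG-rich promoter printed above. The DNA methyltransferase gene Dnmt3b had 3797 bp in LIF-ESCs against 6611 bp in Myc-ESCs, and at Dnmt3a 3887 and 5525 bp in LIF-ESCs stood against 11916 bp in Myc-ESCs. Otx2, a homeobox factor of the primed state, had 4 LIF-ESC peaks of 1984 to 6032 bp and 1 Myc-ESC peak of 19841 bp. Grhl2, an activator of epithelial genes, had 3823 and 8698 bp, and the SoxB1 gene Sox3 2609 and 4976 bp. Zic2 (5928 and 9160 bp) was widened, and Zic5, Lef1, Sfrp2 and Cldn6 were merged. Pou3f1, Foxd3, T and Dkk1 kept their length by the ratio used, with log2 ratios between -0.02 and 0.58. A Suz12 peak lay near 12 of the 17 primed and 8 of the 25 naive genes.

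**Figure D4:**
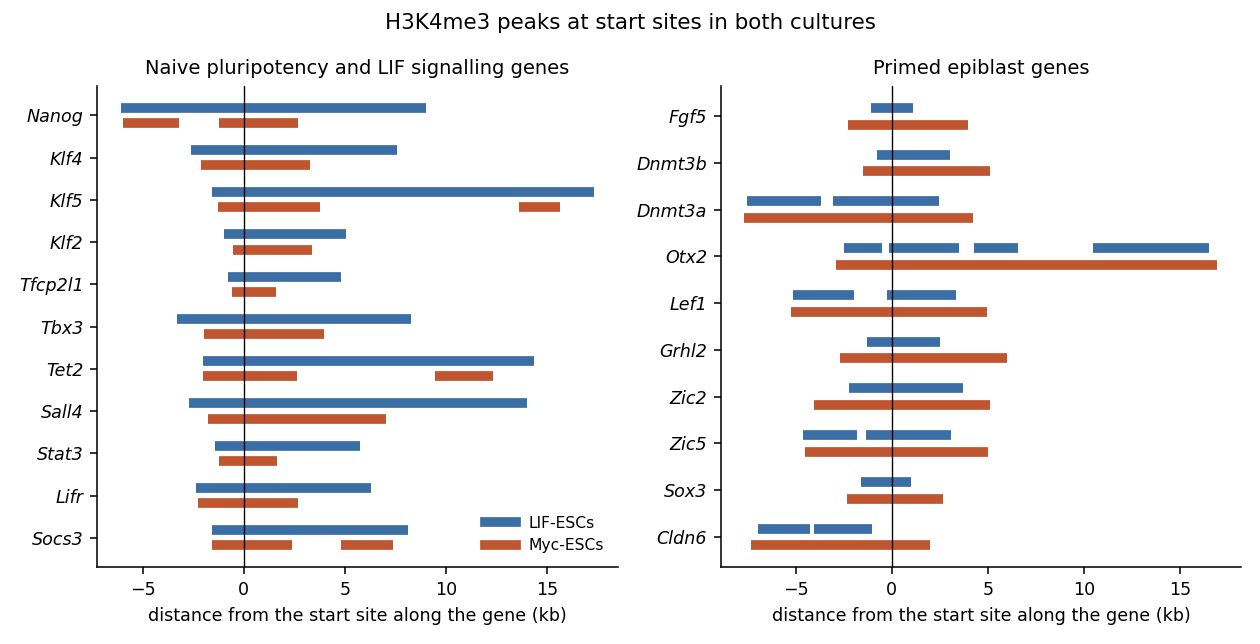
LIF-ESC and Myc-ESC H3K4me3 peaks are drawn as bars along the distance from a start site (x axis, kb, in the direction of transcription) for 11 genes of naive pluripotency and LIF signaling and 10 genes of the primed epiblast (y axis), chosen after their values were seen among members of those lists. In the first set the Myc-ESC bars end earlier or are broken, as at Nanog and Stat3, and in the second set they are the longer ones, as at Fgf5.

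Naive genes had long peaks to begin with, so the counts were also read among genes of like length. Of genes with more than 5 kb of H3K4me3 in LIF-ESCs, 694 of 3252 (21.3%) had a narrowed or split region and 253 (7.78%) a widened or merged one. Of the naive genes 19 were that long and 11 of them were narrowed or split. Of the primed genes 9 were that long, with 0 narrowed or split and 6 widened or merged. When the length in Myc-ESCs was used, 419 of 2860 genes (14.7%) were narrowed or split, and 9 of 17 naive and 0 of 14 primed genes. A list of 320 pluripotency genes that the study compiled had 44 of 311 narrowed or split and 14 widened or merged, and among its 139 genes of more than 5 kb in LIF-ESCs these were 42 (30.2%) and 8.

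**Figure D5:**
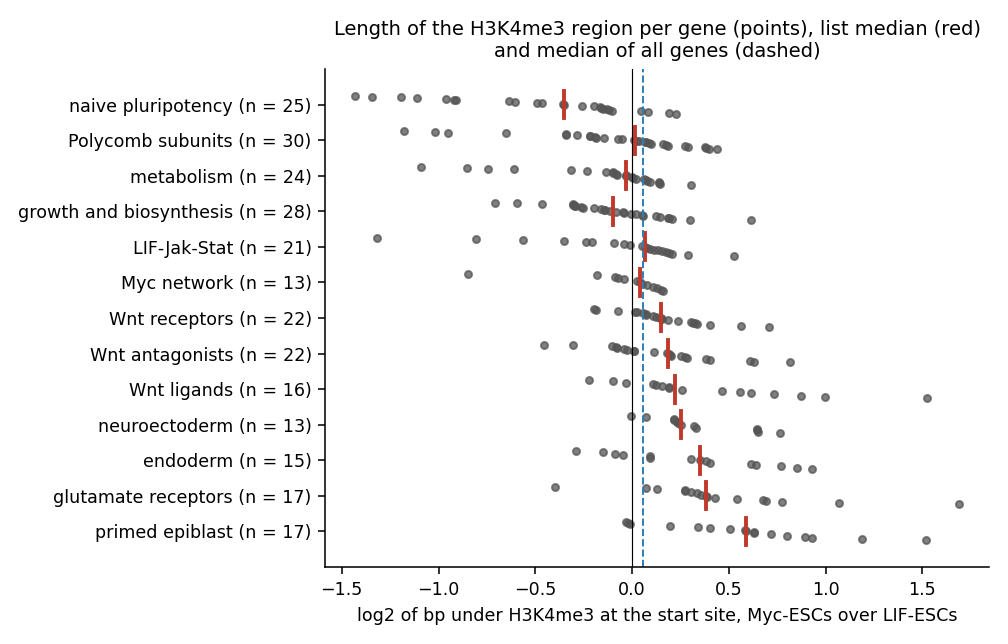
Each point is a gene's log2 ratio of total start-site H3K4me3 length, Myc-ESCs over LIF-ESCs (x axis), in 13 gene lists (y axis), with the median of the list as a red mark and the median over all genes (0.06) as a dashed line. The naive list has its median at -0.35 and the primed list at 0.59.

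Genes of the LIF pathway mostly kept the length of their peaks, and the narrowed ones were the receptor gene Lifr and the effector gene Stat3. LIF binds the receptor Lifr with its partner Il6st, the Jak kinases then act on Stat3, and Socs3 damps the signal. Of the 21 LIF, Jak and Stat genes, all marked in both cultures, 2 were narrowed and 1 merged, and the median log2 ratio was 0.07. Over all genes 4.88% were narrowed or split and 7.24% widened or merged. Stat3, on the reverse strand of chromosome 11, had 7150 bp in LIF-ESCs against 2870 bp in Myc-ESCs, with both ends in intron 1 and a downstream move of -4088 bp, and Lifr had 8676 and 4952 bp with a downstream move of -3658 bp. Il6st (6333 and 5372 bp) and Jak1 (2782 and 3055 bp) kept their length, and so did the other Stat genes. Of 8 genes of the Socs family, 1 was split and 1 merged. At Socs3 the Myc-ESC peaks of 3983 and 2554 bp stood against a LIF-ESC peak of 9678 bp. Stat3, Lifr and Socs3 each had more than 5 kb in LIF-ESCs, a length at which 21.3% of all genes were narrowed or split.

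In the Wnt pathway widened peaks were most frequent among the ligands. Over all genes with a one-to-one region 4.55% were widened. One-to-one regions on start sites were also cut into 5 equal groups by LIF-ESC length. Of the shortest group (872 to 2351 bp) 19.6% were widened, and of the other groups between 0.31 and 2.29%. The Wnt lists were not compared with genes of like length. Wnt ligands bind Fzd and Lrp receptors, Dkk and Sfrp proteins hold them back, and beta-catenin, the product of Ctnnb1, carries the signal to Tcf and Lef factors. Of 16 ligands marked in both cultures 5 were widened, Wnt2, Wnt3, Wnt7b, Wnt8a and Wnt16, and 0 narrowed or split, and Wnt1 and Wnt10b were marked in Myc-ESCs only, at ranks of 25.5 and 20.1. Wnt2 had 1292 bp at rank 6.92 in LIF-ESCs and 3716 bp at rank 50.8 in Myc-ESCs, with the upstream edge 1756 bp farther out. Of 22 receptor genes 1 was widened, Fzd2, with 4018 bp in LIF-ESCs against 6571 bp in Myc-ESCs, and the receptors' ligand Rspo3 was marked in Myc-ESCs only. Of 22 antagonists Dkk2 and Sostdc1 were widened, Sfrp2 was merged and none was narrowed or split, and Dkk3 was marked in Myc-ESCs only. Of 21 intracellular members Ctnnb1 (9210 and 5249 bp) and Tle5 (4717 and 2932 bp) were narrowed, and Lef1 and Tcf7 were merged. Ctnnb1 had more than 5 kb in LIF-ESCs, a length at which 21.3% of all genes were narrowed or split. A Suz12 peak lay near 17 of 19 ligand, 16 of 23 receptor, 18 of 25 antagonist and 6 of 21 intracellular genes.

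Genes for chromatin proteins had narrowed or split regions where their LIF-ESC peaks were long. Of 30 Polycomb subunit genes, 6 were narrowed or split and 1, Yaf2, was merged. All 6 were among the 13 with more than 5 kb of H3K4me3 in LIF-ESCs, a length at which 21.3% of all genes were narrowed or split. Eed, the reader subunit of the complex with Suz12, had 14921 bp in LIF-ESCs against 6592 bp in Myc-ESCs, Rnf2, the ubiquitin ligase of the other Polycomb complex, 7531 and 3713 bp, and Rybp 22871 and 11813 bp. Jarid2 had 30042 bp in LIF-ESCs against peaks of 10862, 2434, 2986 and 2835 bp in Myc-ESCs, and Mtf2 and Cbx7 were split as well. Of 19 genes for H3K4 methylation and demethylation, Kdm5b and Rbbp5 (16003 and 5056 bp) were narrowed, Ash2l and Kdm1a split and Setd1b merged, and the 4 narrowed or split genes were among 14 of more than 5 kb. In the Myc network the regions of Myc (7987 and 8128 bp) and Mycn (8096 and 8975 bp) kept their length. Mga, a Max partner, had 8376 and 4649 bp, and Mycl and Mxi1 were merged. The transgene has no place in the genome build, so the Myc value is that of the resident gene.

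Growth and biosynthesis genes were near the background in number, with 2 of the 28 narrowed or split (Tfrc, Eif4e) and 2 widened or merged (Cad, Ccnd2). Of 24 metabolism genes 4 were narrowed and 0 widened or merged, and 17 of the 24 had more than 5 kb in LIF-ESCs, the 4 among them. They were the glucose transporter genes Slc2a1 (9887 and 4649 bp) and Slc2a3 (7388 and 4835 bp), the hexokinase gene Hk1 (6194 and 3703 bp) and the phosphofructokinase gene Pfkp (8220 and 4545 bp). These 4 made up 23.5% of the 17, near the 21.3% narrowed or split among all genes of that length in LIF-ESCs. Of the 13 metabolism genes with more than 5 kb in Myc-ESCs 0 were narrowed or split, against 14.7% of all such genes. Of 21 genes of Fgf signaling Etv4, Etv5 and Spry4, which are known targets of the pathway, were narrowed or split, and Fgf5 and Fgf15 widened. Etv4 and Etv5 had more than 5 kb in LIF-ESCs, the length at which 21.3% of all genes were narrowed or split. Of 30 genes of Nodal, Bmp and Tgfb signaling Smad7 was narrowed (18860 and 9591 bp), Bmp2 widened, and Acvr2b, Id2, Skil and Smad6 merged.

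Lineage genes outside the epiblast were more often widened or merged than narrowed or split, and most lay near Suz12. Over all genes 7.24% were widened or merged and 4.88% narrowed or split. At start sites as a whole short LIF-ESC peaks were widened more often than long ones, and these lists were not matched for length. Widened or merged were 6 of 15 endoderm genes (among them Gata6, Lamb1, Sox17, Foxa1 and Foxa2), 3 of 15 mesoderm genes (Nkx2-5, Hand1 and Hand2), 4 of 13 neuroectoderm genes (among them Emx2, Pax3 and Pax6) and 6 of 12 trophoblast genes (Gata2, Gata3, Esx1, Hand1, Tfap2a and Tfap2c), with 0 narrowed or split in any of these lists. Merged is not the same as longer, since the summed length was smaller in Myc-ESCs for Tfap2c (log2 ratio -0.48) and Hand2 (-0.06). By summed length 11 of 15 endoderm, 10 of 15 mesoderm, 12 of 13 neuroectoderm and 11 of 12 trophoblast genes were longer in Myc-ESCs, against 61.5% of all genes. Marked in Myc-ESCs only were the neuroectoderm genes Neurog1, Nkx2-2, Six3 and Zic1, the mesoderm gene Msgn1 and the trophoblast gene Krt7, at ranks between 10.7 and 37.1. The endoderm gene Hnf4a was marked in LIF-ESCs only, at rank 21.3. All 18 neuroectoderm genes had a Suz12 peak nearby. Of 17 glutamate receptor genes Gria2, Gria4, Grm3, Grm6 and Grm8 were widened and 0 were narrowed or split, and Gria3 and Grm5 were marked in Myc-ESCs only. Of 20 genes of cadherins and adhesion Cdh8 and Cdh11 were widened, Cdh2 merged and Fn1 split. Of 6 fibroblast genes marked in both cultures Col5a2, Prrx1 and Twist2 were widened, and Col1a2 was marked in Myc-ESCs only.

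Germline genes differed in both directions. Of 24, Hormad1, Nanos3, Stra8, Tex11 and Tuba3a were marked in LIF-ESCs only and Mael, Sycp1 and Tdrd1 in Myc-ESCs only. Stra8, a gene of entry into meiosis, had the LIF-only peak with the highest rank of those with a region of their own, 2503 bp at rank 53.8. Of the 13 genes of the two-cell state found in the annotation, such as the Zscan4 family, 0 were marked in either culture, and since these genes are near-identical copies, reads from them may not have been placed. Of the 27 genes listed as named by the study's text or figures, 4 were narrowed or split (Ctnnb1, Tle5, Nanog and Socs3) and 3 widened or merged (Gata6, Sox17 and Tcf7).

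The other gene lists that the study compiled for signaling pathways stood closer to the background. Their median log2 ratios lay between 0.06 and 0.16 in the 12 lists, and narrowed or split regions made up between 3 of 92 and 14 of 142 genes. The Hippo list had the 14 of 142, with 18 widened or merged, and the list for Tgf and Bmp signaling had the 3 of 92, with 13 widened or merged. The longest list, for Mapk signaling, had 16 of 385 narrowed or split and 30 widened or merged.

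The sex chromosomes had smaller shares of LIF-only regions than each of the autosomes. Of 1321 regions on X, 7.19% were LIF-only (5.92 to 8.71%), while the shares on autosomes ran from 14.8% on chromosome 7 to 19.6% on chromosome 4. Myc-only regions made up 13.3% of the regions on X and between 9.64% and 13.3% on autosomes. The median log2 length ratio of one-to-one regions was 0.23 on X and between 0.09 and 0.18 on autosomes. Of the 95 LIF-only regions on X 44 lay in gene bodies. Chromosome Y held 166 regions, of which 7.23% were LIF-only (4.18 to 12.2%) and 15.7% Myc-only (10.9 to 22.0%), with a median log2 length ratio of 0.33.

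The motifs searched, CACGTG (the E-box that Myc and Max bind), TTCNNNGAA (bound by Stat factors), CTTTGAT (bound by Tcf and Lef factors) and ATGCAAAT (the octamer), read on both strands of 1000 bp windows, were found at the following shares. CACGTG was in 18.3% of the Myc-only windows (17.1 to 19.5%), 16.6% of the LIF-only windows, 13.2% of the narrowed, 17.5% of the widened and 18.9% of all windows. TTCNNNGAA was in 27.9% of the LIF-only (26.8 to 29.0%) and 30.4% of the Myc-only windows (29.0 to 31.8%), against 23.9% of all windows. CTTTGAT was in 16.0% of the narrowed (13.6 to 18.6%), 14.6% of the LIF-only, 12.0% of the Myc-only and 9.55% of the widened windows, against 10.2% of all. ATGCAAAT was in 5.75% of the LIF-only and 4.89% of the Myc-only windows, against 4.03% of all. The median GC content was 46.4% in narrowed, 47.9% in LIF-only, 51.7% in Myc-only, 55.2% in widened and 53.6% in all windows. The motif shares were not corrected for base composition, so they cannot be read apart from it. Of the 7 windows printed above the one at Vrtn holds CACGTG and none holds another of these motifs. Over 32851 RefSeq promoters of 300 bp CACGTG was in 7.15%, TTCNNNGAA in 8.30%, CTTTGAT in 3.73% and ATGCAAAT in 1.74%.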

How the data were processed

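H3K4me3 was measured by ChIP-seq in 2 cultures of mouse ESCs, with 2 libraries named behind each deposited list. Per the study's methods and the submitters' processing notes, the authors aligned reads to GRCm38 with Bowtie2 2.2.3 and called peaks with MACS 1.4.2 against input. The authors deposited 1 list per culture and antibody with a position and a MACS score for each peak. Whether reads or peaks of the libraries were pooled is not given in the sources used here, and the depth is unknown. Peaks come without strand or height, so the comparison rests on edges, which move with depth and enrichment. Scores were used as ranks within a list.

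Regions were built by joining overlapping peaks (1 bp), and start sites are those of 45756 curated RefSeq transcripts (26180 symbols) of GRCm38. Start-site windows were 2500 bp on either side, the length ratio 1.5 and the edge move 1000 bp, and Suz12 peaks counted within 1000 bp. CpG, GC and repeats came from the soft-masked genome. Analyses used Python 3.11.15, pandas 2.3.3, numpy 2.4.6 and pysam 0.24.0, and the interval code was tested on simulated data. Named genes were those listed from the study's text or figures and the 10 highest-ranking coding genes of each culture-only class. Also named were the 10 largest and smallest length ratios with scores of at least 100 and the 5 highest split and merged regions. Members of 25 gene lists that changed class were taken in as well. The 10 largest downstream moves, the genes with the most culture-only regions and the highest culture-only regions were added after the values were seen. The members, the 25 lists and 13 lists of the study were chosen with earlier results of these data known. Alternatives are given in the closing section. A few members of the gene lists are counted with their list but not reported here by name.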

Additional observations from a re-analysis of the deposited data

How the results depend on the processing

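No paired analysis was possible because each list stands for both libraries of a culture, and leaving out a library was not possible for the same reason. Of 146 values recomputed under alternatives, 102 were classed as the same and 44 as moved. The first class was wide for counts and took in narrowed regions at 1212 against 840 as reported. Nearly all values were counts, shares or other values that cannot be negative, so they could not change sign. The order of 2 pairs of counts turned. With lists of equal length Myc-only regions (5170) outnumbered LIF-only regions (4999), and with ratios divided by their median narrowed regions (1212) outnumbered widened ones (1158). The alternatives for edges, Suz12 and gene lists were chosen after seeing the data.

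With scores of at least 100 the shared share became 83.9% for LIF-ESCs and 86.2% for Myc-ESCs, LIF-only regions 4116, split regions 138, widened regions 1227 and widened regions with Suz12 33.9%. Start-site and gene-body shares then became 11.3% and 56.7% for LIF-only and 21.7% and 31.5% for Myc-only regions. With lists of equal length the shared shares became 83.5% and 83.0% and Suz12 lay at 28.5% of the widened regions. Under an overlap of 50% of both peaks the shared shares were 76.5% and 81.8%, and by construction 0 split and 0 merged regions remained. With peaks under 1000 bp apart joined, 82.8% of the LIF-ESC list was shared, 218 regions were merged and 163 had the upstream edge drawn in.

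A ratio of 1.3 gave 5424 widened and 1507 narrowed regions (Suz12 at 23.3% of the widened), and a ratio of 2 gave 310 and 266 (Suz12 at 41.9%) and 7 naive genes narrowed or split. Of the regions widened by ratios divided by their median 29.5% had Suz12. With 1000 bp windows the start-site shares were 5.94% of LIF-only and 12.8% of Myc-only regions and the gene-body shares 60.8% and 37.8%, and with 5000 bp they were 19.5% and 22.4%, and 51.0% and 31.5%. With GENCODE M21 basic, 19.0% of LIF-only and 25.6% of Myc-only regions lay at start sites, 54.9% of LIF-only regions in gene bodies, and genes marked in 1 culture numbered 1173 (Myc-ESCs) and 941 (LIF-ESCs). In 300 bp windows the GC content was 56.0% in Myc-only and 60.3% in widened regions. Where no construction is named, the cause was not tested.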
